A study of Homo sapiens with 12 samples.

Results

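The collagen genes of AsPC-1 and PANC-1 pancreatic cancer cells were compared across overexpression of TAp63 or deltaNp63. The family was taken as the protein-coding genes whose GENCODE symbol is COL, a number, A and a number, without COL17A1, and it held 43 of the 39099 genes in the table. AsPC-1 is a line from the ascites of a pancreatic adenocarcinoma and PANC-1 a line from a pancreatic duct carcinoma. Each line was labelled as Mock, as TAp63 overexpressing (TAp63 O/E) or as deltaNp63 overexpressing (deltaNp63 O/E), which gives 6 groups, each with 2 libraries that the labels call biological replicates. TAp63 and deltaNp63 are the TP63 proteins with and without the amino-terminal transactivation domain. The vector, its promoter, the time after transfer and whether a group was a pool or a clone are not given in the sources used here.

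Collagens are triple helices of α chains, and each gene encodes an α chain. Chains are hydroxylated and glycosylated in the endoplasmic reticulum, assembled by type-specific rules, secreted, trimmed and crosslinked, so the partner chains that a cell makes set which collagen it can build. In pancreatic cancer much of the fibrillar collagen of the stroma comes from fibroblasts, while carcinoma cells are known to make some collagens of their own.

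Values are in TPM, the abundance per transcript length scaled so that each library sums to 1000000, so that levels of different genes in a library can be set side by side. The read depth is unknown, so no counting error is given and a value of 0 is called listed at 0. TP63 had 1.10 and 0.817 TPM in the AsPC-1 mock libraries against 102.3 and 169.7 with TAp63 and 245.1 and 350.4 with deltaNp63. PANC-1 mock had 0.119 and 0.0245 TPM of TP63 against 323.8 and 342.2 with TAp63 and 814.8 and 1187 with deltaNp63. All 8 epithelial markers examined were at 1 TPM or more in every group, with summed levels of 7629.6 to 11059 TPM in AsPC-1 libraries and 3622 to 3982 in PANC-1. The AsPC-1 deltaNp63 replicate 1 library stood apart from the other AsPC-1 libraries with the lowest of these sums, where the next was 10013. Of 11 fibroblast markers, 10 were under 1 TPM in AsPC-1, where LUM alone was high, and 9 in PANC-1, where THY1 and FBLN1 were high. The leukocyte gene PTPRC and the endothelial genes CDH5 and VWF were near 0 in all groups. In bulk RNA, fewer cells of a type and less RNA per cell cannot be told apart.

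The cell lines used different collagen genes. AsPC-1 libraries held 65.4 to 125.9 TPM of collagen RNA, of which COL6A1, the α1 chain of collagen VI, made up 83.7% to 88.2%. PANC-1 libraries held 190.9 to 246.1 TPM, of which COL1A1, the α1 chain of collagen I, made up 42.3% to 47.2% and COL18A1 11.6% to 14.3%. A level of 1 TPM in 2 or more libraries of a line was reached by 6 members in AsPC-1 and 17 in PANC-1. Of these, 5 reached it in both lines, 12 in PANC-1 alone and 1, COL28A1, in AsPC-1 alone. Every PANC-1 library lay above every AsPC-1 library for 23 of the 43 members, and below for 3, which were COL6A1, COL13A1 and COL28A1. Over all 39099 genes these shares were 19.9% and 10.5%. Of the 18 members that passed the filter described next, 12 lay above and 3 below, where 45.0% and 25.3% of all genes that passed it did.

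**Figure D1:**
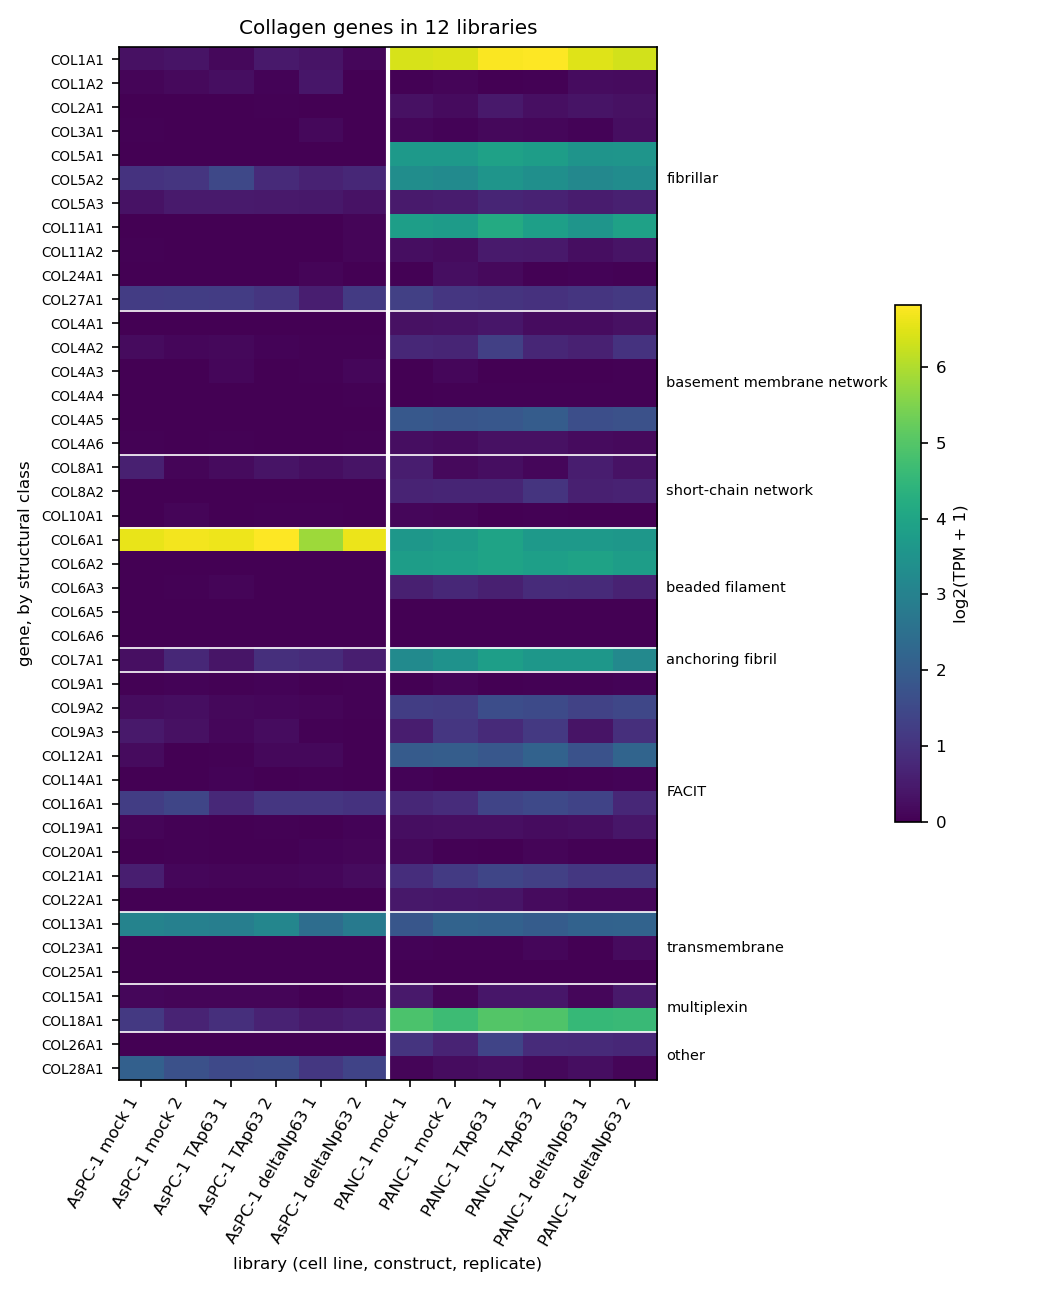
The heat map shows log2(TPM + 1) of the 43 collagen genes (rows, by structural class) in the 12 libraries (columns, AsPC-1 left and PANC-1 right of the white line). COL6A1 is the bright row in AsPC-1, where its share of collagen TPM was 83.7% to 88.2%, and COL1A1 is the bright row in PANC-1.

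The limma test was run where 2 or more of the 12 libraries reached 1 TPM, which held for 18 members and not for 25. By class, 5 of 11 fibrillar, 1 of 6 basement membrane, 0 of 3 short-chain, 2 of 5 beaded filament, 5 of 10 fibril-associated (FACIT), 1 of 3 transmembrane and 1 of 2 multiplexin genes passed, as did COL7A1, COL26A1 and COL28A1. The weakest member inside the filter was COL26A1, with 1.02 TPM in its second-highest library, and the nearest outside was COL4A2, with 0.997. The 25 others reached at most 1.46 TPM in any library and at most 0.504 TPM in AsPC-1. COL6A5 and COL25A1 were listed at 0 in all 12 libraries.

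Upstream sequences are shown for chains whose level divides the lines or that are absent beside a partner, taken from RefSeq on GRCh38.p14. The table matched 31 of the 43 members, and each sequence is the 250 bases before an annotated start, or a part of them. Capitals mark the GC box GGGCGG, the CCAAT box CCAAT and the TATA box TATAAA, on either strand; a GC box and a CCAAT box read on opposite strands can share bases.

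COL5A1, chr9:134641553-134641802, plus strand: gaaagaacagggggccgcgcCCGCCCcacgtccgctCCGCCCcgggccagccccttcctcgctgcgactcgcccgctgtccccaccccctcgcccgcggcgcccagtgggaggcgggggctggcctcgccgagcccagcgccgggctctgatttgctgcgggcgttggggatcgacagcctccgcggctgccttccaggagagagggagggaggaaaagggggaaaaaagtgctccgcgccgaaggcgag

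COL11A1, chr1:103108523-103108772, minus strand: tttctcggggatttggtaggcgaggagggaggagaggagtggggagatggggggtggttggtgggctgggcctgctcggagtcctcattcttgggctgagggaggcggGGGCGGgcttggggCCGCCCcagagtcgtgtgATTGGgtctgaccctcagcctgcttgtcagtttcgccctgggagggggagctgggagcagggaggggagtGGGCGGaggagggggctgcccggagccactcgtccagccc

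COL6A2, chr21:46097862-46098111, plus strand: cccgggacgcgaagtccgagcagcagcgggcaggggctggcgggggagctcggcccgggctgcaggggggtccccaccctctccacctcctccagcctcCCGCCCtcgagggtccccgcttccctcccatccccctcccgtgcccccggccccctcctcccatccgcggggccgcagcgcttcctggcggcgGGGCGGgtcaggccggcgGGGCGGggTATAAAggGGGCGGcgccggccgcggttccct

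COL4A2, chr13:110307158-110307257, plus strand: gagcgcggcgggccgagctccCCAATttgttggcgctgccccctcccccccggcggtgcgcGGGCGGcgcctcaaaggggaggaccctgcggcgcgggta

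COL4A5, chrX:108439588-108439837, plus strand: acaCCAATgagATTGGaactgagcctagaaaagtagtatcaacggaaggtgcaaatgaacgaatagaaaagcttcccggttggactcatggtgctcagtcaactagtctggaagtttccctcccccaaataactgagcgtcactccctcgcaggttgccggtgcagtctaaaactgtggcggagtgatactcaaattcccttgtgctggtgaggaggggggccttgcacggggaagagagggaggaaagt

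COL28A1, chr7:7535874-7536123, minus strand: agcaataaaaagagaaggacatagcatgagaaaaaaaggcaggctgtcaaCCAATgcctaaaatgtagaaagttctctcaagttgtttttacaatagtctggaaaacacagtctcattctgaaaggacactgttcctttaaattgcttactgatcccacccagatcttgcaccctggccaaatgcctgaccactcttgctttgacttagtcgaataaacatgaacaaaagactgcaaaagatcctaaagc

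COL5A1, COL11A1 and COL6A2, all higher in PANC-1, carried 2, 3 and 4 GC boxes, COL11A1 also a CCAAT box and COL6A2 a TATA box. COL4A5 carried 2 CCAAT boxes and no GC box. COL28A1, higher in AsPC-1, carried no GC box and 1 CCAAT box. The start used for COL28A1 lies 15800 bases from that of its most abundant transcript, so this window is not the one before that transcript. A GC box stood in 19 of the 31 members against 42.6% of all 35116 windows, a CCAAT box in 9 against 32.0%, and a TATA box in 6 against 10.7%. Some counted windows are likewise far from the start of the most abundant transcript, such as those of COL18A1 (34753 bases), COL15A1 (94766) and COL4A3 (131675). The p53-family half-site was in none of the 31 member windows and in 5.57% of all windows. These matches describe letters in a short window and say nothing about a factor.

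Among the fibrillar collagens, PANC-1 had COL1A1 without COL1A2 and the chains of collagens V and XI. COL1A1 (ENSG00000108821, chr17:50184101-50201632, minus strand) was at 84.1 and 86.1 TPM in PANC-1 mock, 108.4 and 111.4 with TAp63 and 88.6 and 80.8 with deltaNp63. In AsPC-1 it was at 0.235 and 0.293 TPM in mock, 0.0974 and 0.383 with TAp63 and 0.274 and 0.0841 with deltaNp63. All PANC-1 libraries were far above all AsPC-1 libraries. Its partner COL1A2, the α2 chain that joins α1 chains in the common form of collagen I, did not exceed 0.323 TPM in AsPC-1 libraries or 0.170 TPM in PANC-1 libraries. In PANC-1 the TPM of COL1A1 was 519.8 to 15566 times that of COL1A2, a range set by values of COL1A2 close to 0. Trimers of α1 chains alone are a known form of collagen I in carcinoma cells, which RNA levels do not show. COL3A1, whose collagen III shares fibrils with collagen I in soft tissues, was at or under 0.190 TPM in every library.

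COL5A1 and COL5A2, which encode the chains of collagen V that nucleates collagen I fibrils, were both present in PANC-1. COL5A1 (ENSG00000130635, chr9:134641803-134844843, plus strand) was at 11.8 and 11.7 TPM in PANC-1 mock, 13.9 and 12.8 with TAp63 and 10.6 and 10.8 with deltaNp63, and in AsPC-1 it was listed at 0 in 5 libraries and at 0.00447 in deltaNp63 replicate 1. COL5A2 (ENSG00000204262, chr2:189031898-189225312, minus strand) was at 9.08 and 8.57 TPM in PANC-1 mock, 10.8 and 9.46 with TAp63 and 8.07 and 8.86 with deltaNp63. In AsPC-1 COL5A2 was at 0.987 and 1.06 TPM in mock, 1.78 and 0.766 with TAp63 and 0.558 and 0.703 with deltaNp63. Thus AsPC-1 kept a low level of the α2 chain while the α1 chain was listed at or near 0. The ratio of COL5A1 to COL5A2 in PANC-1 was 1.22 to 1.36 over the 6 libraries.

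COL11A1 (ENSG00000060718, chr1:102876467-103108872, minus strand), a chain of the cartilage collagen XI that can also join collagen V chains, followed the same line. It was at 13.1 and 12.4 TPM in PANC-1 mock, 17.0 and 13.4 with TAp63 and 10.6 and 13.9 with deltaNp63. In AsPC-1 COL11A1 was listed at 0 in 5 libraries and at 0.0628 in deltaNp63 replicate 2. COL27A1, a fibrillar collagen of developing cartilage, was the tested fibrillar gene with like levels in the lines, at 0.496 to 1.34 TPM in AsPC-1 and 0.957 to 1.44 in PANC-1. The fibrillar genes outside the test other than COL1A2 and COL3A1 (COL2A1, COL5A3, COL11A2 and COL24A1) reached at most 0.644 TPM, in COL5A3.

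**Figure D2:**
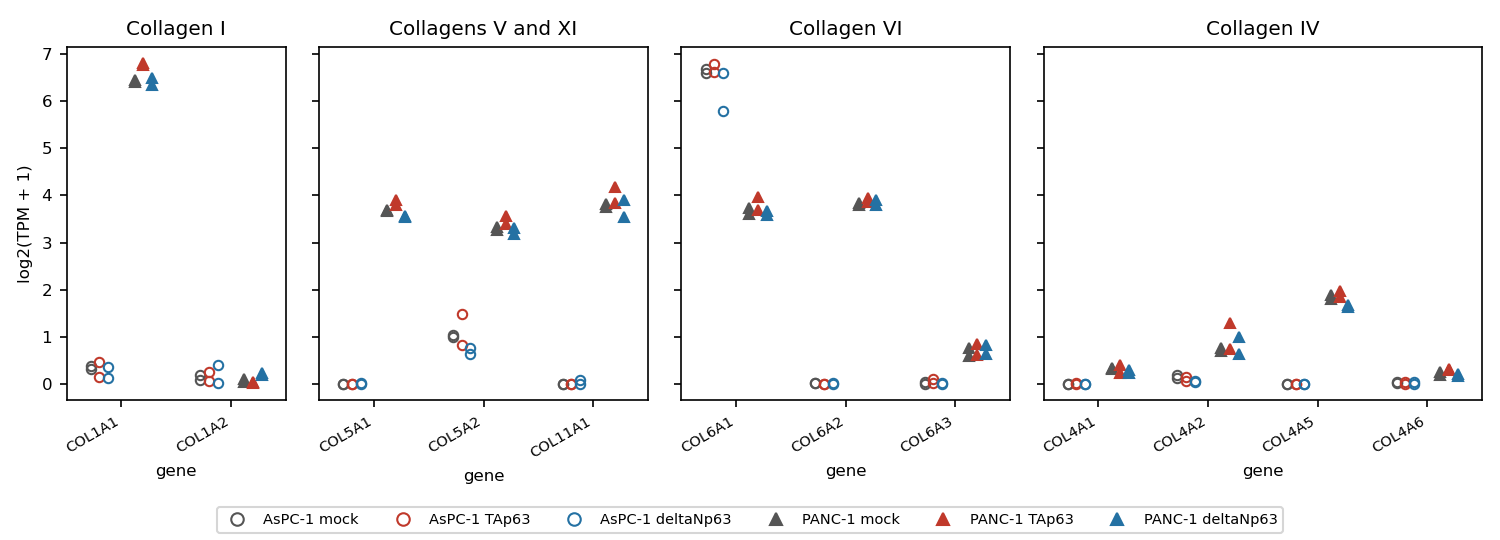
Points show log2(TPM + 1) of chain partners in each library, with open circles for AsPC-1, filled triangles for PANC-1 and colours for mock, TAp63 and deltaNp63. COL1A1 stands high without COL1A2 in PANC-1, and COL6A1 stands high without COL6A2 and COL6A3 in AsPC-1.

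Collagen VI is built of an α1, an α2 and a further chain such as α3, and it forms beaded filaments around cells. COL6A1 (ENSG00000142156, chr21:45981770-46005050, plus strand) was at 95.5 and 102.2 TPM in AsPC-1 mock, 98.2 and 110.0 with TAp63 and 54.8 and 96.1 with deltaNp63. In PANC-1 COL6A1 was at 11.2 and 12.3 TPM in mock, 14.5 and 11.9 with TAp63 and 11.8 and 11.1 with deltaNp63. The AsPC-1 deltaNp63 replicate 1 library was the lowest of its line, and still above every PANC-1 library. COL6A2 (ENSG00000142173, chr21:46098112-46132848, plus strand) showed the opposite order. It was at 12.8 and 13.3 TPM in PANC-1 mock, 14.4 and 13.5 with TAp63 and 14.1 and 13.0 with deltaNp63, and at or under 0.0156 TPM in all AsPC-1 libraries, 3 of which were listed at 0. COL6A3 was at 0.506 to 0.785 TPM in PANC-1 and at most 0.0674 in AsPC-1. In PANC-1 the ratio of COL6A1 to COL6A2 was 0.84 to 1.01, and COL6A1 was 15.2 to 27.6 times COL6A3. AsPC-1 therefore had RNA of the α1 chain with its α2 and α3 partners near 0, and the α5 and α6 genes COL6A5 and COL6A6 were listed at 0 there.

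The collagen IV genes, whose chains form the basement membrane network, lie in head-to-head pairs. COL4A1 and COL4A2 start 127 bases apart in RefSeq, and the COL4A2 sequence above is a 100-base stretch that lies before both starts. COL4A1 was at 0.173 to 0.327 TPM in PANC-1 and at most 0.00626 in AsPC-1. COL4A2 was at 0.540 to 1.46 TPM in PANC-1 and 0.0305 to 0.142 in AsPC-1, so its PANC-1 level was 2.35 to 4.45 times that of COL4A1. COL4A5 (ENSG00000188153, chrX:108439838-108697545, plus strand), the α5 chain found in kidney and skin basement membranes, was at 2.70 and 2.49 TPM in PANC-1 mock, 2.61 and 2.92 with TAp63 and 2.11 and 2.20 with deltaNp63. It was listed at 0 in all 6 AsPC-1 libraries. By GENCODE gene bounds its neighbour COL4A6 lies 340 bases away on the other strand. The RefSeq starts nearest to the most abundant transcripts of these genes are 1416 bases apart. COL4A6 was at 0.117 to 0.241 TPM in PANC-1, and COL4A5 exceeded it 10.8 to 18.8 times. COL4A3 and COL4A4 were at or under 0.0849 TPM in all libraries.

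COL18A1 (ENSG00000182871, chr21:45405165-45513720, plus strand), a basement membrane multiplexin whose end fragment is endostatin, was the second most abundant collagen of PANC-1. It was at 28.3 and 24.6 TPM in PANC-1 mock, 30.6 and 29.9 with TAp63 and 22.8 and 23.3 with deltaNp63. In AsPC-1 it was at 1.19 and 0.610 TPM in mock, 0.897 and 0.585 with TAp63 and 0.401 and 0.5003 with deltaNp63. The other multiplexin, COL15A1, was at most 0.389 TPM in PANC-1 and 0.0849 in AsPC-1.

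COL7A1 (ENSG00000114270, chr3:48564073-48595329, minus strand), the anchoring fibril collagen that ties stratified epithelia to the stroma, was at 8.51 and 10.04 TPM in PANC-1 mock, 13.0 and 11.1 with TAp63 and 11.3 and 8.21 with deltaNp63. In AsPC-1 it was at 0.223 and 0.680 TPM in mock, 0.311 and 0.879 with TAp63 and 0.773 and 0.488 with deltaNp63. The lines did not overlap.

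Among the FACIT collagens, which sit on fibril surfaces, COL12A1 (ENSG00000111799, chr6:75084326-75206267, minus strand) was at 2.86 and 3.04 TPM in PANC-1 mock, 2.59 and 3.38 with TAp63 and 2.31 and 3.57 with deltaNp63. In AsPC-1 it was at 0.157 and 0.0041 TPM in mock, 0.0291 and 0.103 with TAp63 and 0.108 and 0.00786 with deltaNp63. COL12A1 thus marked PANC-1 in every group. COL16A1 (ENSG00000084636, chr1:31652263-31704319, minus strand) was at 1.35 and 1.66 TPM in AsPC-1 mock, 0.727 and 1.10 with TAp63 and 1.09 and 0.979 with deltaNp63. In PANC-1 it was at 0.691 and 0.806 TPM in mock, 1.62 and 1.82 with TAp63 and 1.59 and 0.687 with deltaNp63. In these libraries the order of the lines differed between mock and TAp63. The TAp63 effect did not differ between the lines past the threshold (adjusted p = 0.318 by limma). COL9A2, COL9A3 and COL21A1 were at 0.277 to 2.04 TPM in PANC-1, where COL9A2 and COL21A1 lay above all AsPC-1 libraries. COL9A1, COL14A1, COL19A1, COL20A1 and COL22A1 were at or under 0.357 TPM everywhere.

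COL13A1 (ENSG00000197467, chr10:69801880-69964275, plus strand), a transmembrane collagen of cell contacts, was higher in AsPC-1. Its AsPC-1 level was 7.20 and 6.87 TPM in mock, 6.55 and 7.70 with TAp63 and 4.45 and 6.05 with deltaNp63, and its PANC-1 level was 2.53 and 3.46 in mock, 3.31 and 2.95 with TAp63 and 3.40 and 3.53 with deltaNp63. COL28A1 (ENSG00000215018, chr7:7356203-7535873, minus strand), a collagen with von Willebrand factor A domains like those of collagen VI, was at 3.26 and 2.22 TPM in AsPC-1 mock, 1.81 and 1.96 with TAp63 and 1.13 and 1.60 with deltaNp63. In PANC-1 COL28A1 was at 0.0592 to 0.216 TPM. COL26A1 was the reverse, at 0.586 to 1.66 TPM in PANC-1 and at or within 1.73e-09 of 0 in AsPC-1. Of the short-chain collagens, COL8A2, a chain of the corneal endothelial membrane, was at 0.612 and 0.628 TPM in PANC-1 mock, 0.639 and 1.02 with TAp63 and 0.524 and 0.569 with deltaNp63, and was listed at 0 in AsPC-1. COL8A1 and COL10A1 overlapped between the lines at 0.504 TPM or less.

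The mock groups were tested first, to give the baseline difference of the lines. COL1A1 was higher in PANC-1 mock by 6.09 on the log2(TPM + 1) scale (SE 0.13, adjusted p = 1.16e-10 by limma, 85.1 ± 1.36 against 0.264 ± 0.0413 TPM, SD, n = 2). COL18A1 was higher by 3.87 (SE 0.16), COL6A2 by 3.79 (SE 0.11), COL7A1 by 2.84 (SE 0.23), COL5A2 by 2.28 (SE 0.19) and COL12A1 by 1.88 (SE 0.18). COL6A1 was lower in PANC-1 mock (log2 difference -2.97, SE 0.21, adjusted p = 6.50e-07 by limma, 11.8 ± 0.799 against 98.8 ± 4.76 TPM, SD, n = 2). COL28A1 (-1.73, SE 0.17), COL13A1 (-1.02, SE 0.16) and COL16A1 (-0.52, SE 0.20, adjusted p = 0.0381 by limma) were also lower. COL5A1, COL11A1 and COL4A5 passed as higher with AsPC-1 mock listed at 0, so that no fold is given. COL9A2 (0.98), COL21A1 (0.69) and COL26A1 made up the rest of the 12 that were higher. The COL21A1 call was lost with quantile scaling (0.35, adjusted p = 0.0983 by limma). COL27A1 (-0.03, interval -0.45 to 0.38) and COL9A3 (0.43, interval -0.08 to 0.94) did not pass, and COL9A3 passed without PANC-1 mock replicate 1 (0.69, adjusted p = 0.0321 by limma).

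In all, 16 of 18 members passed between the mock groups, 12 higher and 4 lower in PANC-1, where 72.5% of all 14767 genes tested passed, 44.6% higher and 27.9% lower. Between the TAp63 groups 17 members passed, 14 higher and 3 lower, against 74.9% of all genes, 48.2% higher and 26.7% lower. Between the deltaNp63 groups 16 passed, 13 higher and 3 lower, against 75.7% of all genes, 49.2% higher and 26.5% lower. Most members entered the test through their PANC-1 level alone, so their direction is partly set by the filter and these counts only describe the genes that passed it. The median log2 difference of all genes between the mock groups was 0.24, and 0.08 with libraries scaled by quantiles.

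The difference had like sizes in libraries the mock comparison did not use. COL1A1 was higher in PANC-1 by 6.49 (SE 0.13) between the TAp63 groups and by 6.19 (SE 0.13) between the deltaNp63 groups, and COL18A1 by 4.17 and 4.05 (SE 0.16 each). COL6A1 was lower, with log2 differences of -2.89 and -2.57 (SE 0.21 each). COL16A1 was higher in PANC-1 by 0.51 between the TAp63 groups (SE 0.20, adjusted p = 0.0389 by limma) and at 0.04 between the deltaNp63 groups (SE 0.20, adjusted p = 0.874 by limma). Its calls in the mock and TAp63 groups were lost when any library of the compared groups but AsPC-1 TAp63 replicate 2 was left out, with adjusted p of 0.0597 to 0.208 by limma. With quantile scaling the TAp63 value was 0.12 (adjusted p = 0.635 by limma). COL9A3 passed between the TAp63 groups (0.80, SE 0.23) and between the deltaNp63 groups (0.61, SE 0.23), and was lost in the first without PANC-1 TAp63 replicate 2 (adjusted p = 0.0634 by limma) and in the second without PANC-1 deltaNp63 replicate 2 or either AsPC-1 deltaNp63 library (adjusted p of 0.0803 to 0.243 by limma). Both COL9A3 calls were also lost with quantile scaling (0.41 and 0.34) and with median centring (0.49 and 0.25), at adjusted p of 0.0735 to 0.341 by limma. COL13A1 was lower in PANC-1 in the TAp63 groups (-0.97, SE 0.16) and in the deltaNp63 groups (-0.47, SE 0.16), the latter at -0.29 with an adjusted p of 0.148 by limma without AsPC-1 deltaNp63 replicate 2, and lost without either PANC-1 deltaNp63 library (adjusted p of 0.0591 and 0.0782 by limma).

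**Figure D3:**
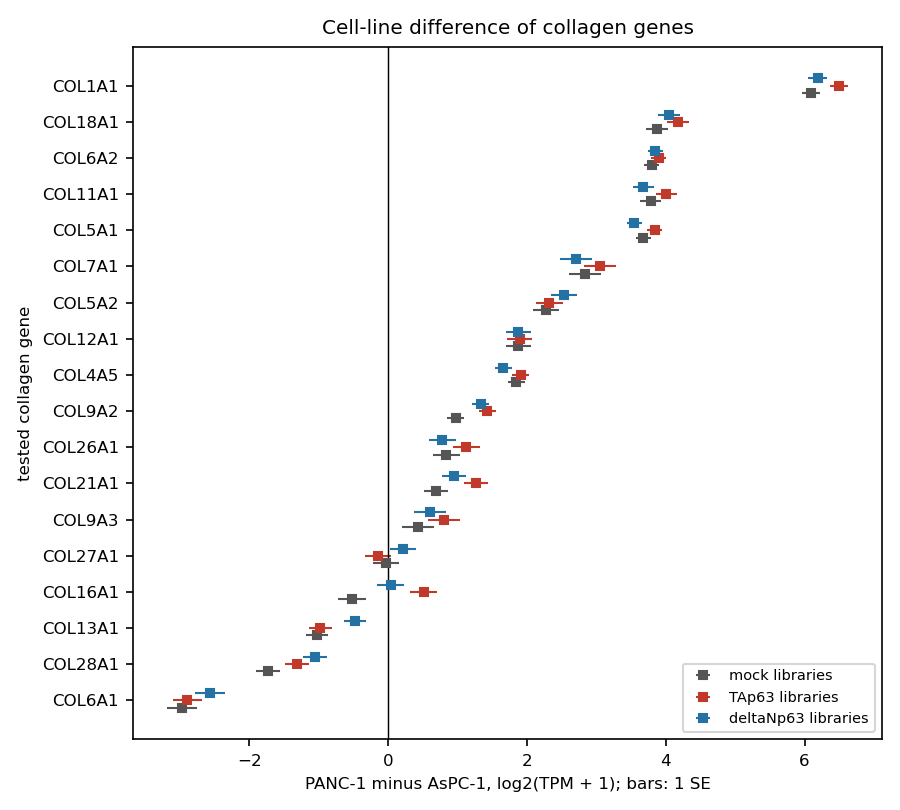
Squares show the PANC-1 minus AsPC-1 difference in log2(TPM + 1) for the 18 tested members, with bars of 1 SE, in the mock (grey), TAp63 (red) and deltaNp63 (blue) libraries. COL1A1 lies at 6.09 to 6.49 and COL6A1 at -2.97 to -2.57, while COL16A1 lies on both sides of 0; values of genes with an AsPC-1 group listed at 0 (COL5A1, COL11A1, COL4A5, COL6A2, COL26A1) are fitted values and no fold.

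Other marker genes also differed between the lines, in both directions. The fibroblast markers THY1 and FBLN1 were at 25.1 ± 1.01 and 73.9 ± 4.37 TPM in PANC-1 mock (SD, n = 2), and DCN, PDGFRA and FAP were at or under 0.998 TPM in all 12 libraries. LUM was at 204.1 ± 28.5 TPM in AsPC-1 mock (SD, n = 2) and at or under 0.0523 TPM in PANC-1. Of 5 mesenchymal genes also known from carcinoma lines, 4 were higher in PANC-1 mock, among them CDH2 (4.47, SE 0.11) and SPARC (3.84, SE 0.23), and FN1 did not pass (0.53, SE 0.23). Of 8 epithelial genes 7 were lower, with EPCAM at -4.77 (SE 0.09), and KRT7 did not pass. Between the TAp63 groups 7 were lower and 1 higher, and between the deltaNp63 groups 6 were lower and 1 higher. Their part in the collagen difference was not tested.

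Overexpression of either construct moved no collagen gene past the threshold in AsPC-1. With TAp63, 0 of 18 members passed the limma test, against 0.637% of all genes, and limma without the trend also called 0. An unadjusted limma p under 0.05 was reached by 0 members, against 15.1% of all genes. Both TAp63 libraries were below both mock libraries for 6 members (COL6A2, COL9A2, COL9A3, COL16A1, COL21A1 and COL28A1) and above for 0, against 35.4% and 11.2% of all genes. Of these, COL6A2, COL9A2, COL9A3 and COL21A1 were low throughout AsPC-1, at 0.481 TPM at most. The limma interval of COL6A1 was -0.40 to 0.55 around 0.07, and that of COL13A1 -0.35 to 0.37.

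With deltaNp63, 0 of 18 members passed in AsPC-1, against 7.14% of all genes. An unadjusted limma p under 0.05 was reached by 3 members, against 29.7% of all genes, and limma without the trend called 1. That gene was COL28A1, with a log2 difference of -0.66 (SE 0.17, adjusted p = 0.0509 by limma, 0.0479 without the trend, 1.37 ± 0.332 against 2.74 ± 0.734 TPM, SD, n = 2). Both deltaNp63 libraries were below both mock libraries for COL28A1. The other 2 were COL18A1 (-0.37, SE 0.16, interval -0.73 to -0.019) and COL13A1 (-0.37, SE 0.16, interval -0.73 to -0.015), with adjusted p of 0.152 and 0.155 by limma. Both deltaNp63 libraries were below both mock libraries for 9 members and above for 0, against 41.1% and 11.1% of all genes. The 9 include COL6A2, COL9A2 and COL9A3, which were low throughout AsPC-1, at 0.38 TPM at most. The median of all genes was itself -0.12 in this comparison and 0.00 after quantile scaling. The members with a positive value were 4 of 18, where 30.8% of all genes were positive, and they were 4 after quantile scaling and 10 after median centring.

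The AsPC-1 deltaNp63 result depended on replicate 2. Without that library 4 of 18 members were called as lower than mock, where 22.2% of all genes were, so the members' share was that of all genes. These were COL6A1 (-0.84, SE 0.13, adjusted p = 0.00292 by limma), COL28A1 (-0.80, SE 0.21), COL27A1 (-0.63, SE 0.17) and COL13A1 (-0.56, SE 0.17). They rest on replicate 1 alone, the library with the lowest COL6A1 and the lowest summed epithelial markers, and its spread is assumed to be that of the other groups. Without replicate 1 none was called.

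TAp63 against deltaNp63 in AsPC-1 called 0 of 18 members, against 0.0203% of all genes, and 0 by limma without the trend. At an unadjusted limma p under 0.05 there were 3 members, against 7.92% of all genes. These were COL6A1 (0.51, SE 0.21, interval 0.04 to 0.99), COL5A2 (0.44, SE 0.19) and COL13A1 (0.39, SE 0.16), each with an adjusted p of 0.628 by limma. Without deltaNp63 replicate 2, COL6A1 was the 1 member called (0.91, SE 0.13, adjusted p = 0.0146 by limma), where 6.94% of all genes were.

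In PANC-1, COL1A1 lay higher with TAp63 in both libraries, at 109.9 ± 2.11 TPM against 85.1 ± 1.36 in mock (SD, n = 2). This log2 difference of 0.36 (SE 0.13, interval 0.07 to 0.66) had an unadjusted limma p of 0.0205 and an adjusted p of 1. COL16A1 differed by 0.64 (SE 0.20, interval 0.19 to 1.08) and COL9A2 by 0.35 (SE 0.12, interval 0.08 to 0.63), also with adjusted p of 1 by limma. In all, 0 of 18 members passed, against 0.00677% of all genes, and 0 were called by limma without the trend. At an unadjusted limma p under 0.05 there were 3 members, against 3.41% of all genes. Both TAp63 libraries were above both mock libraries for 10 members, and below for COL27A1 alone, against 22.0% and 20.4% of all genes. These 10 were COL1A1, COL5A1, COL5A2, COL11A1, COL6A2, COL7A1, COL9A2, COL16A1, COL18A1 and COL21A1. The value was positive for 17 of 18 members, where 49.5% of all genes were positive, and for 16 members after quantile scaling or median centring. Its median was 0.17 in the members and 0.00 over all genes. Summed collagen was 241.1 ± 7.17 TPM with TAp63 against 198.4 ± 0.663 in mock and 193.7 ± 3.91 with deltaNp63 (SD, n = 2 each).

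With deltaNp63, 0 of 18 members passed in PANC-1, against 0.0406% of all genes, and 0 were called by limma without the trend. An unadjusted limma p under 0.05 was reached by 0 members, against 2.34% of all genes. Values ran from -0.19 to 0.26. Both deltaNp63 libraries were above both mock libraries for COL9A2 alone and below for COL4A5, COL5A1 and COL18A1, against 10.8% and 16.3% of all genes. TAp63 against deltaNp63 reused the 2 TAp63 libraries of the comparison with mock, so the 2 comparisons are not independent. It called 0 members, against 0.0271% of all genes, and 0 without the trend. At an unadjusted limma p under 0.05 there were 3 members, against 2.96% of all genes. These were COL1A1 at 0.37, COL5A1 at 0.30 and COL18A1 at 0.38, with adjusted p of 1 by limma. Both TAp63 libraries were above both deltaNp63 libraries for 10 members and below for 2, against 20.2% and 13.8% of all genes. With 2 libraries a group an exact permutation test of a gene cannot go below p = 0.333, and limma p-values measure the spread between these libraries only.

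**Figure D4:**
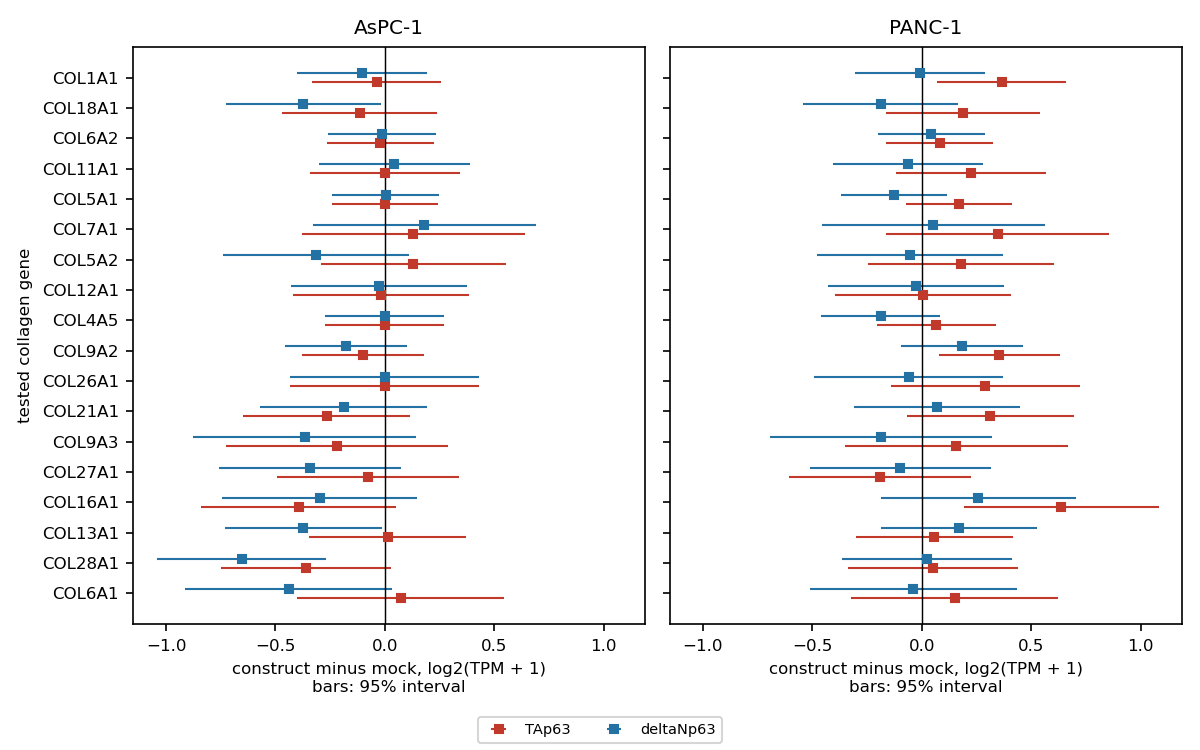
Squares show construct minus mock in log2(TPM + 1) for the 18 tested members in AsPC-1 (left) and PANC-1 (right), TAp63 in red and deltaNp63 in blue, with 95% limma intervals. In PANC-1 the TAp63 values lie right of 0 for 17 of 18 members, where 49.5% of all genes do, and no member passed the adjusted test.

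The cell-line difference in a construct effect was tested as PANC-1 effect minus AsPC-1 effect. For TAp63, 0 members passed, against 0.0745% of all genes, and 0 were called by limma without the trend. At an unadjusted limma p under 0.05 there were 3 members, against 10.4% of all genes. COL16A1 was the first of these, at 1.03 (SE 0.28, unadjusted p = 0.00462, adjusted p = 0.318 by limma), with its TAp63 libraries below mock in AsPC-1 and above mock in PANC-1. COL21A1 (0.58, SE 0.24) and COL9A2 (0.45, SE 0.18) were the others. For deltaNp63, 0 passed, against 0.582% of all genes, and 0 were called without the trend. The members at an unadjusted limma p under 0.05 were 2, COL28A1 (0.68, SE 0.25) and COL13A1 (0.54, SE 0.23), against 16.5% of all genes. Without AsPC-1 deltaNp63 replicate 2, COL6A1 was the 1 member called (0.80, SE 0.17, adjusted p = 0.0193 by limma), where 14.9% of all genes were.

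The transcripts behind these sums differed in kind. COL6A1 RNA in AsPC-1 was 92.2% to 99.7% protein-coding transcripts by GENCODE type. COL1A1 in PANC-1 was 73.0% to 90.0% protein-coding, which is its MANE Select transcript, the agreed standard transcript of a gene, with 10.04% to 27.0% in transcripts typed as retained intron. COL7A1 in PANC-1 was 57.8% to 70.0% retained-intron transcripts, and its protein-coding share was 28.7% to 39.5%. For COL28A1 in AsPC-1 the protein-coding share was 29.7% to 64.0%, so its summed level includes transcripts of other types. COL18A1 in PANC-1 was 63.4% to 67.9% a short protein-coding transcript at chr21:45490275-45513720, and 27.3% to 33.2% a longer one at chr21:45455522-45513720. The MANE Select transcript was absent from the transcript rows for 7 members, among them COL7A1, COL13A1 and COL18A1. The shares given for COL7A1 and COL18A1 are therefore shares of other transcripts. Of the 43 members, 26 overlap another annotated gene, such as COL18A1 with SLC19A1 and COL5A1 with COL5A1-AS1, and how reads were assigned there is not given in the sources used here.

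Genes that modify, export, trim and crosslink collagen were compared in the same way. Of 37 biosynthesis genes 32 were tested, and 23 were higher and 4 lower in PANC-1 mock than in AsPC-1 mock, with a median of 0.91. Over all genes 44.6% were higher and 27.9% lower, with a median of 0.24. PLOD2, the lysyl hydroxylase of telopeptides, was at 85.8 and 76.6 TPM in PANC-1 mock and 0.0249 and 0.0537 in AsPC-1 mock, a log2 difference of 6.30 (SE 0.12). LOXL2, a lysyl oxidase that starts crosslinks, was higher by 5.74 (SE 0.11) and FKBP10, a prolyl isomerase that works with PLOD2, by 5.59 (SE 0.09). BMP1, the protease that removes the procollagen C-terminal propeptide, was lower (log2 difference -2.55, SE 0.11), at 4.95 and 5.85 TPM in PANC-1 mock against 33.8 and 39.2. MIA2, an export gene of the TANGO1 family, was at -1.99 (SE 0.16) and PLOD3, a lysyl hydroxylase and glucosyltransferase, at -0.79 (SE 0.10). Adjusted p for these 6 was at most 4.96e-05 by limma. Between the TAp63 groups 22 were higher and 5 lower, where 48.2% and 26.7% of all genes were. Between the deltaNp63 groups 23 were higher and 4 lower, where 49.2% and 26.5% of all genes were.

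**Figure D5:**
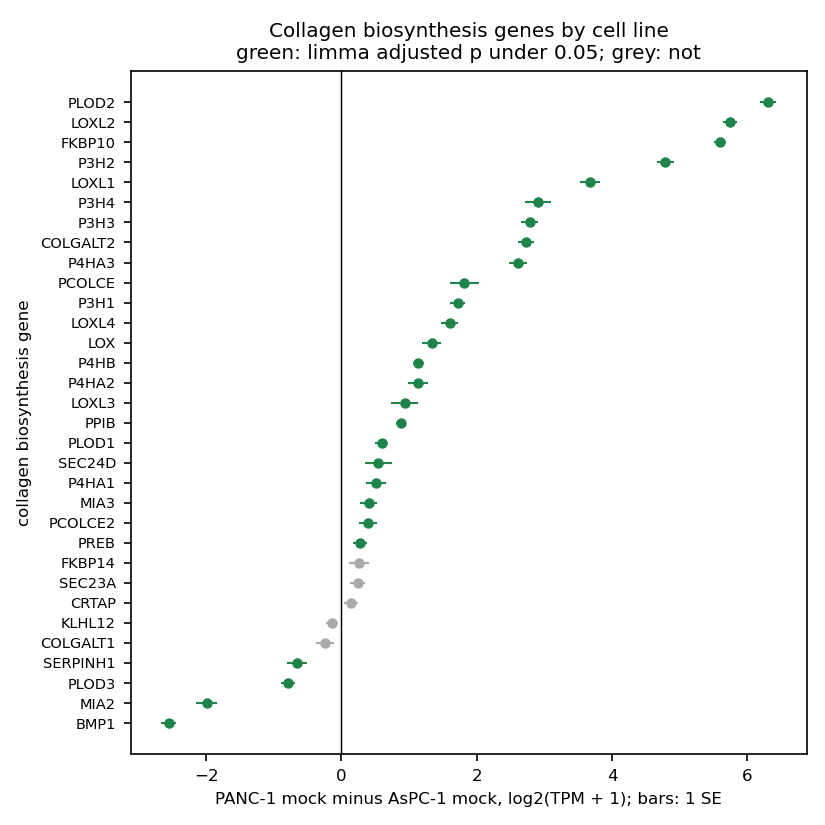
Points show the PANC-1 mock minus AsPC-1 mock difference in log2(TPM + 1) for the 32 tested collagen biosynthesis genes, with bars of 1 SE, green where the limma adjusted p was under 0.05. PLOD2, LOXL2 and FKBP10 lie above 5 and BMP1 lies lowest, at -2.55.

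The constructs moved few of these genes. TAp63 called 0 of 32 in either line, and deltaNp63 0 in PANC-1. With deltaNp63 in AsPC-1, 4 of 32 fell against mock, where 6.51% of all genes did. Of these, COLGALT1 (-0.60, SE 0.13), a collagen galactosyltransferase, and LOXL4 (-0.58, SE 0.13) had the largest changes. Both of these calls were lost with quantile scaling (-0.47 and -0.44, adjusted p = 0.079 and 0.0932 by limma). They were also lost with median centring (-0.39 and -0.37), with no filter, and when any 1 PANC-1 library was left out. The others, PLOD1 (-0.56, SE 0.10) and FKBP10 (-0.53, SE 0.09), were named after their values were seen. The count ran from 0 without either mock library or without deltaNp63 replicate 1 to 14 without deltaNp63 replicate 2, where 27.5% of all genes were called in either direction, and was 0 with the AsPC-1 libraries fitted alone and 1 with quantile scaling. The AsPC-1 TAp63 count rose when either AsPC-1 deltaNp63 library was left out, and so did the number of all genes called.

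Collagen receptors were measured by 10 genes, of which 5 were tested, and all 5 differed between the mock groups, 3 higher and 2 lower in PANC-1, where 72.5% of all genes differed. MRC2, the endocytic receptor that takes up collagen, was at 52.1 and 54.7 TPM in PANC-1 mock and 0.0742 and 0.165 in AsPC-1 mock (log2 difference 5.60, SE 0.10). ITGA10 (1.03, SE 0.15) and ITGA2 (0.57, SE 0.19), the α10 and α2 integrin chains that bind collagen, were higher. The ITGA2 call was lost without PANC-1 mock replicate 2 (0.41) and without AsPC-1 mock replicate 1 or 2 (0.58 and 0.56). It was also lost with median centring (0.40, adjusted p = 0.096 by limma) and with no filter (adjusted p = 0.0505 by limma). DDR1, a receptor kinase activated by collagen, was at 55.6 and 58.7 TPM in PANC-1 mock against 275.7 and 318.8 in AsPC-1 mock (-2.35, SE 0.10), and ITGB1, the shared β1 chain, was at -0.93 (SE 0.11). Neither construct changed a receptor gene past the limma threshold in either line, and the exception was 1 gene with deltaNp63 in AsPC-1 when deltaNp63 replicate 2 was left out.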

How the data were processed

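RNA of 12 libraries was analysed. Per the labels' protocols, RNA was extracted with a column kit (RNeasy plus mini) and libraries made with a stranded mRNA kit (TruSeq). The authors deposited TPM values for 153329 transcripts, each library summing to 1000000. The quantifier, genome build, annotation and strand setting are not given in the sources used here.

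Transcripts were paired with genes by identifier through GENCODE release 44 (hg38), which matched 139819 (91.2%, holding 89.6% to 90.5% of a library's TPM) and left out 13510, and were summed to 39099 genes. Log2(TPM + 1), with a pseudocount of 1, was fitted with limma 3.58.1 (trend) in R 4.3.3 (tables read by data.table, version 1.17.8), on the 14767 genes that reached 1 TPM in 2 or more of the 12 libraries, in 1 model of 6 group means with 6 residual degrees of freedom. On this scale changes of low genes are understated. The 11 contrasts were two-sided and adjusted by Benjamini-Hochberg over all genes, with a threshold of 0.05 and 95% intervals. The scripts were tested on simulated data. TPM keeps no depth, so precision comes from replicates.

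The members and lists were chosen with earlier results of these data known. Values in every library are given for members called in a construct comparison, the 8 largest called differences each way between mock groups and the most abundant member of a class. From the biosynthesis and receptor lists, the 3 largest called changes each way between mock groups and up to 2 for a construct are named. Alternatives were other scalings, filters, pseudocounts, variance models and sample sets, transcript sums, the replicate number as a block and leaving out each library.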

Additional observations from a re-analysis of the deposited data

How the results depend on the processing

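The limits are the 2 libraries a group, the unknown depth and the filter. With a mean of at least 5 TPM over the libraries required, 8 members were tested. All 8 were called between the lines in each of the mock, TAp63 and deltaNp63 comparisons. Of the 10221 genes tested there, 7732, 8003 and 8077 were called. With no filter 41 members and 27309 genes were tested. Between the TAp63 groups 26 members were called, where 12280 of all genes were. The members called as higher in PANC-1 became 21 (mock), 23 (TAp63) and 20 (deltaNp63), where 7421, 8052 and 8168 of all genes were. Those at an unadjusted limma p under 0.05 in PANC-1 became 8 for TAp63 against mock and 8 for TAp63 against deltaNp63, where 1368 and 1197 of all genes were. In AsPC-1, deltaNp63 against mock called 1 member without the trend and 0 to 4 when 1 library was left out, TAp63 against deltaNp63 0 to 1, and the cell-line difference in the deltaNp63 effect 0 to 1. The highest of each came without AsPC-1 deltaNp63 replicate 2. Under the other alternatives the total of collagen genes called in a comparison stayed within 1.5 times of the reported one. Of 1268 alternatives over 62 collagen gene results, 1222 kept direction and side of the threshold, 32 lost the call, 6 gained it and 8 changed direction. These 8 were values that had not passed and did not pass. When 1 library was left out, COL6A1 and COL13A1 with TAp63 in AsPC-1 ran from -0.0081 to 0.15 and from -0.089 to 0.12 (COL13A1 -0.017 without mock replicate 2), COL27A1 between the mock groups from -0.14 to 0.069, and COL16A1 between the deltaNp63 groups from -0.27 to 0.35 (-0.0034 without AsPC-1 deltaNp63 replicate 2). COL16A1 there was at -0.40 with quantile scaling and -0.32 with median centring. The lost calls were of COL16A1, COL9A3, COL13A1, COL26A1 and COL21A1. The cause was not tested.

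Deviations of same-numbered replicates correlated at -0.09 to 0.29, so the numbers were not taken to pair the libraries. With the replicate number as a block, 16 members were called in each comparison of the lines and 0 in every other, COL9A3 gained a call in the mock groups (0.43, adjusted p = 0.0303 by limma), and COL16A1 lost its calls in the mock (-0.52, adjusted p = 0.0512 by limma) and TAp63 (0.51, adjusted p = 0.0521 by limma) groups. The biosynthesis count for deltaNp63 in AsPC-1 rose to 8 with the block, where the count of all genes rose from 1055 to 1633 of 14767. The same alternatives were added for the biosynthesis and receptor lists after seeing the data. There, LOXL3 between the mock groups went from 0.94 to -0.053 with protein-coding transcripts only, and the cause was not tested. The main fit called 72.5% of all genes between the mock groups. Between the mock groups 22 to 29 biosynthesis genes were called.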

Other observations

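Neighbouring collagen genes differed in level. On chromosome 21, COL18A1, COL6A1 and COL6A2 follow each other on the plus strand, 468049 and 93061 bases apart. COL6A1, the middle gene, was the one higher in AsPC-1, at 54.8 to 110.0 TPM, and the genes on either side were higher in PANC-1. On chromosome 2, COL3A1 ends 19151 bases from COL5A2, which lies on the other strand. In PANC-1 COL3A1 was at 0.0396 to 0.190 TPM and COL5A2 at 8.07 to 10.8. On chromosome 3, COL6A5 and COL6A6 lie 32330 bases apart on the plus strand. COL6A5 was listed at 0 in all 12 libraries, and COL6A6 was at or under 0.0155 TPM.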
